A study of Homo sapiens with 23 samples.

Results

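CaSki cells that received a synthetic mimic of miR-218-5p were compared with CaSki cells that received a negative control. CaSki is an established line from a metastatic, HPV-positive squamous carcinoma of the cervix. The comparison covers 61217 listed genes and rests on 6 of the 23 samples of the series, 3 with 100 nM hsa-miR-218-5p and 3 with 100 nM of the negative control n#1. Members were taken by table: every gene listed in the authors' deposited comparison of these 2 groups. The same 3 control samples also served the CaSki comparisons with hsa-miR-124-3p and hsa-miR-23b-3p. C-33A, an established HPV-negative cervical carcinoma line, received the same miR-218-5p dose (3 samples) and its own control (3 samples). No untreated group is used here, the labels give no time after transfection, and each line is 1 line and not a range of tumours. The labels do not say whether replicates were separate cultures, and p-values then measure only how these samples vary, which can be technical variation. Messenger RNA was enriched with oligo(dT) beads and sequenced. The tables used here give 1 value per gene and comparison and none per sample. Fold changes therefore carry a standard error (SE) recovered from the deposited p-value, and the depth of the samples is unknown.

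MicroRNAs are short RNAs that guide Argonaute proteins to messenger RNAs, mostly through pairing of the seed, the bases next to the 5′ end of the microRNA, with the 3′ UTR. Pairing usually lowers the level of the messenger RNA and its translation. The precursors of miR-218 lie within the genes of the axon guidance ligands SLIT2 and SLIT3, and the microRNA is often reported as low in cervical cancer. RefSeq (GRCh38.p14) places the mature sequence at chr4:20528299-20528319 on the plus strand, within SLIT2, and at chr5:168768211-168768231 on the minus strand, within SLIT3. The mature sequence is shown first because the sites below are defined by its seed, positions 2 to 8, which is in capitals.

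hsa-miR-218-5p: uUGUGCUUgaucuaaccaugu

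A match to positions 2 to 8 reads AAGCACA in the 3′ UTR and is called 7mer-m8, or 8mer when an A follows. A match to positions 2 to 7 followed by an A is a 7mer-A1, and the 6mer AGCACA has neither addition. The sites below are, for each of these genes that changed in CaSki, a match of its strongest type, with further matches for GLCE and BIRC5, cut from the GENCODE release 29 transcript (GRCh38) with the match in capitals. They lie in the 3′ UTR, so all are exonic. The single 7mer-A1 of TMEM64, the 6mer of MCFD2 and the further matches of CETN2, VOPP1, SNX4, TPRG1L and PCGF5 are not printed.

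GALNT3 8mer: agtttctgtttcaAAGCACAAta

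GLCE 8mer, first: agttatataatgtAAGCACAAct

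GLCE 8mer, second: gcaaaaatgacacAAGCACAAct

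GLCE 8mer, last: gactttgcagtttAAGCACAAtg

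BIRC5 7mer-A1: ttaattcacagaatAGCACAAac

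BIRC5 8mer: tacaattaaaactAAGCACAAag

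VOPP1 8mer: aaatgagacaacaAAGCACAAtg

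GNAI2 8mer: gccccaaaggaaaAAGCACAAga

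SNX4 8mer: tgccccaaaacagAAGCACAAgt

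HMOX1 7mer-m8: cttccccaacgaaAAGCACAtcc

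CETN2 7mer-m8: ctttttctactgcAAGCACAtgt

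CAV2 7mer-m8: attgcagtaacaaAAGCACAcaa

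GDE1 7mer-m8: acccagtgaggatAAGCACAgat

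TPRG1L 7mer-A1: cctttagggatctcAGCACAAtt

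PCGF5 7mer-A1: ttctgtaacattagAGCACAAta

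CALU 7mer-m8: ggctaattttgtcAAGCACAgct

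The printed windows are at chr2:165748591-165748613 (minus strand) for GALNT3, chr22:35393770-35393792 (plus) for HMOX1 and chrX:152827806-152827828 (minus) for CETN2. The GLCE windows are at chr15:69269874-69269896, chr15:69271828-69271850 and chr15:69272039-69272061, all on the plus strand. BIRC5 has its 7mer-A1 at chr17:78224174-78224196 and its 8mer at chr17:78224197-78224219 on the plus strand, so the windows are adjacent. VOPP1 is at chr7:55471176-55471198 (minus), GNAI2 at chr3:50258797-50258819 (plus) and SNX4 at chr3:125447725-125447747 (minus). CAV2 is at chr7:116506595-116506617 (plus), GDE1 at chr16:19503173-19503195 (minus) and TPRG1L at chr1:3628745-3628767 (plus). PCGF5 is at chr10:91278884-91278906 (plus) and CALU at chr7:128769826-128769848 (plus).

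At a deposited FDR under 0.05, 13 genes fell and 2 rose in CaSki with miR-218-5p. The deposited FDR is taken over all listed genes; adjusted over the measured genes alone, 15 fell and 9 rose, and over those with an average log2 CPM of at least 2, 17 fell and 12 rose. Those falls are 0.0212% of the listed genes. Measured genes below are the 15332 whose average log2 CPM reached 0; of these, 0.0848% fell and 0.013% rose. The fallen genes kept 42.7% to 63.2% of their control level, and their log2 fold changes ran from -1.23 to -0.66 with SEs between 0.139 and 0.24 over all 15 genes, in the authors' deposited table. The median measured gene stood at 0.01 on the same log2 scale, with quartiles at -0.13 and 0.16. All 15 genes had an average log2 CPM between 4.25 and 8.62.

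**Figure D1:**
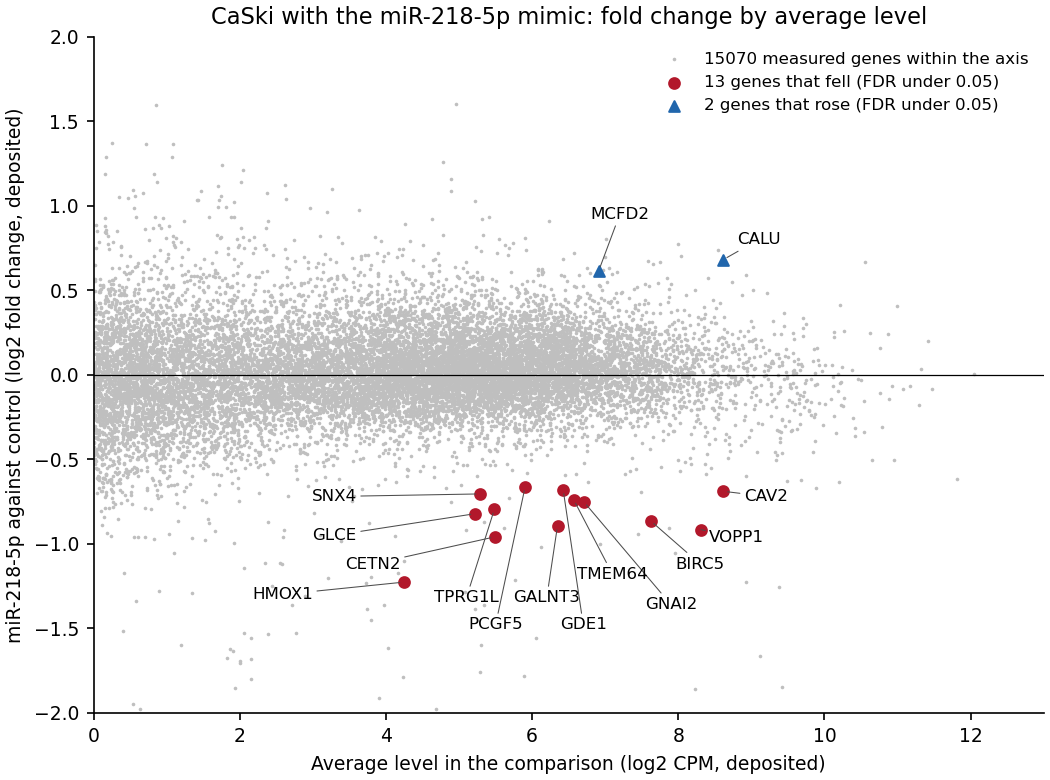
Each point is a measured gene, with its average level (log2 CPM) on the horizontal axis and its log2 fold change between miR-218-5p and control CaSki cells on the vertical axis. The 13 fallen genes (circles) lie between -1.23 and -0.66 and the 2 risen genes (triangles) at 0.62 and 0.68; genes beyond 2 in either direction fall outside the axis.

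Many of the lowest fold changes were not called. The authors' deposited table gives 209 genes with a log2 fold change under -8, reaching -16.93, and 0 genes above 8. None of the 209 was called, since their p-values lay between 0.0659 and 0.257. They include the tubulin TUBB, the chloride channel protein CLIC1 and the ribosomal protein genes RPS9 and RPS18. Of 202 with a position in GENCODE release 29, 58 start on chromosome 6 between 28 and 34 Mb. That stretch holds 103 of the 15332 measured genes, and 180 of the 209 were measured. In the authors' deposited table for C-33A with miR-218-5p, 160 of the 209 stood at the lowest average level of that table, TUBB and CLIC1 among them, and 0 genes had a fold change under -8. The denominator degrees of freedom recovered from F and p had a median of 2.16 for these genes, against 25.7 for measured genes. Uncalled low folds continue above -8: a further 138 measured genes from -8 to under -1 were not called, 82 of them under -2. Their recovered degrees of freedom had a median of 4.16. Of these 138, 24 start in the same stretch of chromosome 6. In the other direction 33 measured genes lay above 1 and 0 above 2. Fitted fold changes under -8 depend on the prior count and bound nothing. Neither those 209 genes nor the 138 are given a direction here. The authors' deposited tables for the other 2 CaSki mimics, which use the same 3 control samples, have 205 and 244 genes under -8. Without values per sample, whether some CaSki libraries were aligned or counted unlike the others was not tested, and every CaSki fold change here is against those 3 control samples. Without the genes under -8 the calls were still 13 falls and 2 rises, and without all uncalled genes under -1 they were 13 and 3.

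Squamous epithelial markers were measured in all 10 cases, led by the basal keratin KRT5 at an average log2 CPM of 12.05 in the authors' deposited table; HPV status was not checked. Leukocyte markers were below the measured level in 6 of 6 cases, at -4.01 to -2.42. Of 6 fibroblast markers 1 was measured, COL1A1 at 1.71, and of 5 endothelial markers 1, CDH5 at 0.47. Neither passed the test, at 0.33 (p = 0.165) and 0.57 (p = 0.0544) in the authors' deposited table.

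Enzymes that build sugar chains on proteins were among the falls. GALNT3, which starts mucin-type O-glycosylation, fell by 0.89 on the log2 scale (SE 0.169, 95% interval -1.23 to -0.56, adjusted p = 0.00812 from edgeR) in the authors' deposited table. It had the lowest p of all listed genes and kept 53.8% of its control level. GLCE, the epimerase that turns glucuronic acid into iduronic acid in heparan sulfate, fell by 0.82 (SE 0.172, adjusted p = 0.0151) in the authors' deposited table. Its 3′ UTR of 2955 bases carries 3 8mer sites, the first at base 644 and the others at 2598 and 2809. GALNT3 has 1 8mer at base 182 of 1190.

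Of 24 measured genes of heparan sulfate synthesis, GLCE alone was called, and the list median was 0.03. Over all measured genes 0.0848% fell and 0.013% rose. At an unadjusted p under 0.05, where 2.62% of measured genes were lower and 4.23% higher, the list held 3 lower and 2 higher genes. SLC35B2, a transporter of the sulfate donor into the Golgi, carries an 8mer and stood at -0.39 (p = 0.00449) in the authors' deposited table. The 2-O-sulfotransferase HS2ST1, which acts after GLCE, stood at 0.36 (p = 0.00882), and the xylose kinase FAM20B at -0.28 (p = 0.0191) in the authors' deposited table. Among 7 measured heparan sulfate core proteins 0 were called and 0 had an unadjusted p under 0.05, and the syndecan SDC3 stood at 0.19 (p = 0.163) in the authors' deposited table.

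The largest of the 13 falls belonged to HMOX1, the inducible enzyme that breaks down heme. In the authors' deposited table HMOX1 fell by 1.23 (SE 0.24, 95% interval -1.70 to -0.76, adjusted p = 0.00973), which leaves 42.7% of the control level. Its 3′ UTR of 616 bases was the shortest of the 13 and holds a single 7mer-m8 at base 186. Of 31 measured genes of the NRF2 and heme list, HMOX1 alone was called, and the median was -0.07 (-0.06 without HMOX2, whose fold change was under -8). As 0.0848% of all measured genes fell and 0.013% rose, few calls would be found in a list of this size. The cystine transporter SLC7A11 stood at -0.35 (p = 0.0094), the ferritin light chain FTL at -0.37 (p = 0.0202) and the malic enzyme ME1 at 0.44 (p = 0.0282) in the authors' deposited table. Those 3 did not pass the adjusted test.

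BIRC5 and CETN2 were the falls from the division and survival lists. BIRC5, or survivin, is a member of the chromosomal passenger complex and of the inhibitor of apoptosis family. It fell by 0.86 (SE 0.176, adjusted p = 0.0139) in the authors' deposited table, and its 7mer-A1 and 8mer start at bases 634 and 657 of a 3′ UTR of 2082 bases. CETN2, a centrin of the centriole that also belongs to the XPC repair complex, fell by 0.96 (SE 0.191, adjusted p = 0.01) in the authors' deposited table. It carries a 7mer-m8 at base 27, a 6mer at 225 and a 7mer-m8 at 341 of 868 bases. VOPP1, which belongs to the endosomal sorting and published target lists and is a vesicular protein often overexpressed in squamous tumours, fell by 0.92 (SE 0.189, adjusted p = 0.015) in the authors' deposited table. With 4 matches to positions 2 to 8, 1 of them an 8mer, VOPP1 had the most such matches among the falls.

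None of the listed partners of BIRC5 and CETN2 passed the test, where 0.0848% of measured genes fell and 0.013% rose. With shares this low, few calls would be found in lists of this size. BIRC5 was the single call among 29 measured genes of the passenger complex and spindle (median 0.05), where cyclin A2 (CCNA2) stood at -0.22 (p = 0.0796) and the mitotic kinase PLK1 at 0.50 (p = 0.0877) in the authors' deposited table. CETN2 was the single call among 22 centrin, XPC and centriole genes (median 0.02), where 2 were lower and 1 higher at an unadjusted p under 0.05. The centriole protein POC1A stood at -0.42 (p = 0.0368) and DDB2 at -0.25 (p = 0.0536) in the authors' deposited table. BIRC5 was also the single call among 25 genes of the BCL2 and inhibitor of apoptosis families (median 0.02). Of these, the survival factor MCL1 stood at 0.51 (adjusted p = 0.643), BIRC3 at -0.51 (p = 0.00198) and APAF1 of the apoptosome at 0.32 (p = 0.0193) in the authors' deposited table. In the G1/S and replication list 0 of 32 were called (median 0.07), with cyclin D1 (CCND1) at 0.29 (p = 0.0199) and RB1 at 0.30 (p = 0.0249) in the authors' deposited table.

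Genes of signalling and of the plasma membrane made up a further set. GNAI2, an inhibitory G protein alpha subunit, fell by 0.75 (SE 0.156, adjusted p = 0.015) in the authors' deposited table and has an 8mer at base 468 of 1012. CAV2, or caveolin 2, a coat protein of caveolae, fell by 0.69 (SE 0.152, adjusted p = 0.0358) in the authors' deposited table and has a 7mer-m8 at base 488 of 2420. The membrane protein TMEM64 fell by 0.74 (SE 0.155, adjusted p = 0.0155) in the authors' deposited table, with a 7mer-A1 at base 97 of 3676. GNAI2 was the only called member of 12 measured alpha subunits (median 0.05), where 0.0848% of all measured genes fell and 0.013% rose. At such shares further calls among 12 genes would be rare. The nearest others in p were GNAO1 at 0.49 (p = 0.023) and GNA13 at 0.21 (p = 0.0722) in the authors' deposited table.

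Membrane traffic, lipid and chromatin genes completed the falls. SNX4, a sorting nexin that returns cargo from endosomes, fell by 0.70 (SE 0.158, adjusted p = 0.041) in the authors' deposited table and has an 8mer at base 46 and a 7mer-A1 at 154 of 1135. GDE1, a glycerophosphodiester phosphodiesterase, fell by 0.68 (SE 0.153, adjusted p = 0.041) in the authors' deposited table. TPRG1L, known as a protein of synaptic vesicles, fell by 0.80 (SE 0.178, adjusted p = 0.041) and PCGF5, a ring finger subunit of a Polycomb complex, by 0.66 (SE 0.15, adjusted p = 0.044) in the authors' deposited table. TPRG1L, PCGF5 and TMEM64 were the 3 falls without a match to position 8, and each has at least 1 7mer-A1. In the endosomal sorting list VOPP1 alone was called among 26 measured genes (median -0.02), where 0.0848% of all measured genes fell and 0.013% rose. That list was put together with earlier results of these data known. The call of VOPP1 is therefore no separate result about endosomal sorting, and no other member was called. The adaptor STAM2, which has an 8mer, stood at -0.60 (p = 0.000151, adjusted p = 0.286) and CHMP6 at -0.48 (p = 0.0478) in the authors' deposited table.

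The 2 risen genes were CALU and MCFD2. CALU, or calumenin, a calcium-binding protein of the endoplasmic reticulum, rose by 0.68 (SE 0.149, adjusted p = 0.031) in the authors' deposited table, to 160.4% of control. MCFD2, which with LMAN1 forms a cargo receptor for coagulation factors, rose by 0.62 (SE 0.139, adjusted p = 0.0417) in the authors' deposited table, to 153.2% of control. The call of MCFD2 was lost when fold changes were centred on the median of genes with an average log2 CPM of at least 2 (0.60, adjusted p = 0.0713). It was also lost when the length and GC trend was removed (0.58, adjusted p = 0.0962). CALU has a 7mer-m8 at base 673 of 2310 and MCFD2 a 6mer only, so a match did not go with a lower level in either. Of 32 measured genes of the calumenin family and ER export, 2 rose (CALU and MCFD2 themselves) and 0 fell, with a median of 0.08. Over all measured genes 0.013% rose. The list was put together with earlier results of these data known, so its holding both rises is no separate result. LMAN1 stood at 0.26 (p = 0.05) and the coat protein SEC24A at 0.29 (p = 0.0545) in the authors' deposited table. MCFD2 shares exonic sequence with TTC7A on the other strand, at an average log2 CPM of 5.23 and a fold change of 0.01, and whether reads were counted by strand is not stated in these sources.

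Just outside the threshold, rises outnumbered falls. The 10 genes next in order had adjusted p-values from 0.0529 to 0.202, and 8 were higher and 2 lower. The kinase NEK7 stood at 0.60 (adjusted p = 0.0529), the activin receptor ACVR2B at 0.77 (adjusted p = 0.103), LRRC58 at 0.65 (adjusted p = 0.109) and the arginine sensor paralogue CASTOR2 at 0.92 (adjusted p = 0.112) in the authors' deposited table. The mitochondrial import receptor TOMM20 (0.63), IFFO2 (0.53), the phosphatase INPP5F (0.53) and the lipid kinase PIP4K2A (0.64) were also higher in the authors' deposited table. The elongation factor ELL2 stood at -0.57 (adjusted p = 0.125) and MOSPD1, with 3 matches to positions 2 to 8, at -0.88 (adjusted p = 0.125) in the authors' deposited table. None of these 10 counts as changed.

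Sites for the microRNA were then counted over all measured genes with an annotated 3′ UTR, 11870 in number. A match to positions 2 to 8 was present in 10 of 13 falls (76.9%) and in 15.4% of measured genes. An 8mer was present in 6 falls (46.2%) against 4.79% of measured genes, and some site of at least 6 bases in 13 of 13 against 37.1%. The median 3′ UTR of the 13 falls was 1781 bases, against 1347 for all measured genes. Among genes with a match it was 1485.5 bases for the 10 falls and 3163 for measured genes. The falls hold 16 matches to positions 2 to 8. These lay a median of 345.5 bases from the nearer end of the 3′ UTR, against 734.5 for the 2242 matches of all measured genes. The 30 bases on each side were 57.4% A or U in the falls (median; range 40% to 71.7%) and 60% over all matches.

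The same tilt appeared one step beyond the calls. At an unadjusted p under 0.001, 37 measured genes were lower (0.241%) and 38 higher (0.248%). A match to positions 2 to 8 was present in 30 of the 37 lower genes (81.1%) and in 9 of the 38 higher genes (23.7%). An 8mer was present in 18 lower and 3 higher genes, and no site at all in 1 lower and 20 higher genes. These genes include those called, and matches and fold changes were compared as a description without a test.

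Over all genes the shift with a site was small. Genes with a match (n = 1831) had a median of -0.01 and genes without one (n = 10039) a median of 0.01 on the log2 scale. By the strongest site, medians were 0.01 with no site, 0.05 for 6mers, 0.01 for 7mer-A1, 0.01 for 7mer-m8 and -0.05 for 8mers. With 1, 2 and 3 or more matches to positions 2 to 8, the medians were 0.0005, -0.04 and -0.04 over 1494, 275 and 62 genes. Leaving out folds under -8, the share of genes at or below -0.5 was 2.29% with no site (168 of 7347), 5.63% with an 8mer (32 of 568) and 9.68% with 3 or more matches (6 of 62). With those folds counted the shares were 3.92%, 5.80% and 9.68%, and without all uncalled genes under -1 they were 1.16%, 4.80% and 8.20%.

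Fold changes also moved with length, and 3′ UTRs with a match were longer (median 3163 bases against 1117). Measured genes with transcripts under 1000 bases had a median of -0.04, those of 4000 to 8000 bases 0.07 and longer ones 0.12. Genes were therefore compared within 3 groups of equal size by 3′ UTR length, with bounds at 775 and 2171 bases. With and without a match, the medians were -0.14 and -0.04 for short, -0.09 and 0.02 for middle and 0.03 and 0.09 for long 3′ UTRs. The genes with a match were lower by 0.0968, 0.110 and 0.0592, against a difference of -0.0201 over all lengths together. In the middle group 6.05% of genes with a match and 1.60% of those without stood at or below -0.5, folds under -8 left out (7.25% and 2.81% with them, 5.43% and 0.645% without all uncalled genes under -1). The gap was widest in the middle group. With folds under -8 counted, the shares in short 3′ UTRs were 6.67% with a match (7 of 105) and 5.24% without. In long 3′ UTRs they were 2.78% and 2.26%. The part that transcript length has in the difference between site classes was not tested beyond this split by 3′ UTR length and the removal of the trend.

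**Figure D2:**
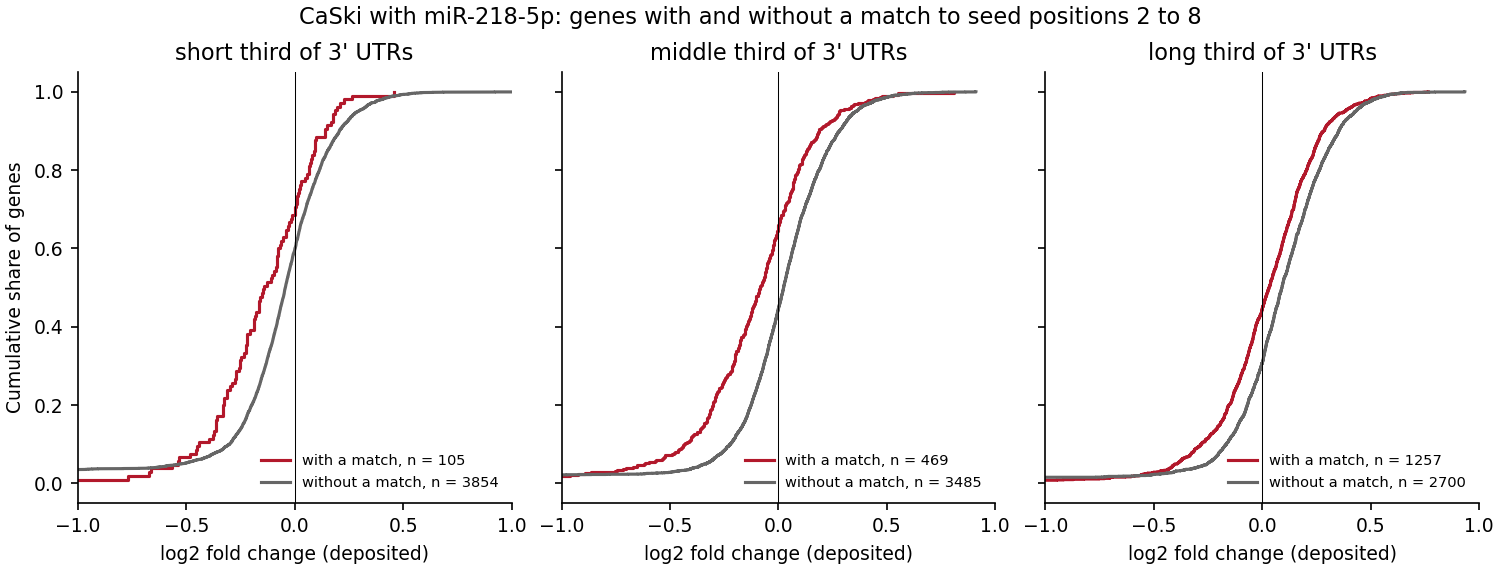
Cumulative share of measured genes (vertical axis) by deposited log2 fold change (horizontal axis, drawn from -1 to 1) in CaSki with miR-218-5p, for genes with and without a match to seed positions 2 to 8 in 3 groups of 3′ UTR length. At the median the curve of genes with a match lies to the left in each group, at -0.14, -0.09 and 0.03 against -0.04, 0.02 and 0.09.

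C-33A cells, which share no sample with CaSki, show the same genes in a second line. All 13 CaSki falls were below 0 there, with a median of -0.87 and a range from -1.01 to -0.50 in the authors' deposited table. Of these, 9 also fell in C-33A (69.2% of the 13 and 21.4% of the 42 C-33A falls), where 0.273% of measured genes fell and 0.026% rose. These 9 are CETN2 (-0.98), BIRC5 (-0.87), VOPP1 (-0.96), GNAI2 (-0.82), GLCE (-1.01), TMEM64 (-0.92), SNX4 (-0.79), GDE1 (-0.68) and PCGF5 (-0.92) in the authors' deposited table. Neither rise was called in C-33A, at 0.58 for CALU (adjusted p = 0.274) and 0.35 for MCFD2 (adjusted p = 1) in the authors' deposited table.

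The other 4 falls were not called in C-33A. GALNT3 and CAV2 were below the measured level there, at average log2 CPM values of -1.07 and -2.96 against 6.35 and 8.62 in CaSki. Their C-33A fold changes, -0.73 (SE 0.594) and -0.50 (SE 1.5) in the authors' deposited table, have intervals that include 0. HMOX1 stood at -0.73 (SE 0.216, adjusted p = 0.395) and TPRG1L at -0.87 (SE 0.219, adjusted p = 0.0731) in the authors' deposited table for C-33A. The difference between lines for HMOX1, CaSki minus C-33A, was -0.49 (95% interval -1.13 to 0.14), and that for TPRG1L was 0.08 (95% interval -0.47 to 0.63).

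No gene passed the adjusted test of the difference between the lines. Of 12902 genes measured in both, 0 (0%) had an adjusted p under 0.05 in the normal test of the difference, and 201 had an unadjusted p under 0.05. Those 201 are a smaller share than that threshold alone would give, so the test can miss differences. That 0 genes passed does not show that the lines responded alike. Of the 45 genes called in either line and measured in both, 10 had an unadjusted p under 0.05, and their choice by a call in either line favours a difference. The lowest adjusted p was 1.00. For the 13 called CaSki genes measured in both lines the lowest unadjusted p was 0.125, for HMOX1. BIRC5 differed by 0.0028 (95% interval -0.47 to 0.47) and GDE1 by -0.0028 (95% interval -0.44 to 0.44), so differences of up to 0.47 in size remain within their intervals. Among the next 10 genes, NEK7 stood at 0.60 in CaSki and -0.08 in C-33A (difference 0.68, 95% interval 0.26 to 1.10, unadjusted p = 0.00161). LRRC58 stood at 0.65 and -0.03 (difference 0.69, 95% interval 0.24 to 1.13, unadjusted p = 0.00231), and neither passed the adjustment. Degrees of freedom of the denominator, worked out from F and p in the authors' deposited tables, had a median of 244868 in C-33A against 25.7 in CaSki, so the spread was pooled further over genes in C-33A.

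**Figure D3:**
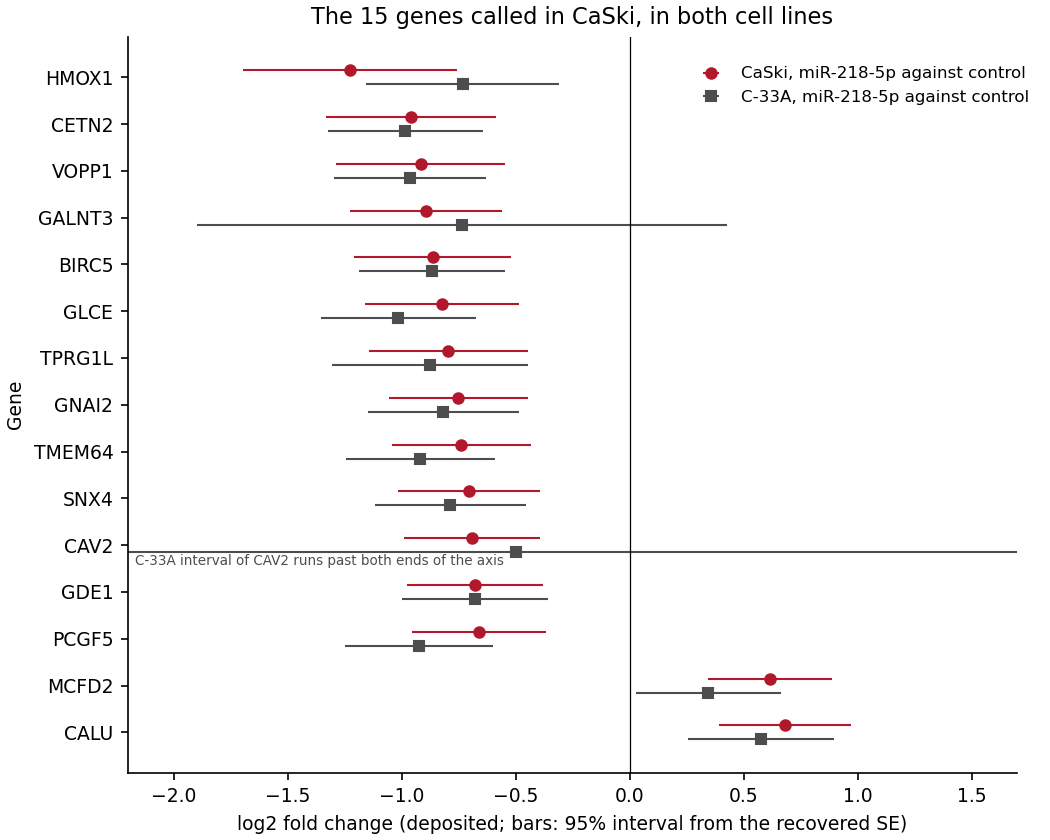
Deposited log2 fold change (horizontal axis) of the 15 genes called in CaSki (vertical axis), in CaSki (circles) and C-33A (squares), with 95% intervals from the recovered SE. All 13 falls lie below 0 in both lines; the wide C-33A intervals belong to GALNT3 and CAV2, which were below the measured level there, and that of CAV2 runs past both ends of the axis.

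Read from the other side, the C-33A falls mostly stood below 0 in CaSki. Of 42, 37 were measured in CaSki, 36 of these were below 0 and 32 were lower at an unadjusted p under 0.05, against 2.62% of measured genes. Their median was -0.51 in CaSki and -0.84 in C-33A, where they had been chosen, in the authors' deposited tables. In 36 of the 37 the CaSki value was nearer 0 than the C-33A value, a side that their choice in C-33A favours. COMMD8 stood at -0.60 in CaSki and -1.11 in C-33A, the insulin-like growth factor binding protein IGFBP3 at -0.69 and -0.85, and DCBLD2 at -0.57 and -0.68 in the authors' deposited tables. Across 12901 genes measured in both lines, leaving out 1 with a fold change under -8, Pearson's r was 0.245 and Spearman's rho 0.346. This correlation is across genes, which are not independent replicates, and the lines share the microRNA, the sequencing and the counting.

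Of the published targets of miR-218-5p, 23 were measured. This list was put together from background knowledge with earlier results of these data known, so its calls are no independent support. BIRC5, VOPP1 and GLCE fell and 0 rose, where 0.0848% of measured genes fell and 0.013% rose. Of the 23, 16 were below 0, with a median of -0.07. At an unadjusted p under 0.05, where 2.62% of measured genes were lower and 4.23% higher, 7 were lower, the 3 called genes among them, and 0 higher. STAM2 is described above. The focal adhesion protein LASP1 stood at -0.31 (p = 0.0132), the connexin GJA1 at -0.30 (p = 0.032) and the chromatin protein HMGB1 at -0.31 (p = 0.0484) in the authors' deposited table. Paxillin (PXN) stood at 0.27 (p = 0.123) and ephrin A1 (EFNA1), which has no site in the transcript used, at -0.20 (p = 0.177) in the authors' deposited table. TPD52 stood at -0.22 (p = 0.257) and the sulfotransferase NDST1 at 0.12 (p = 0.314) in the authors' deposited table. LAMB3, the laminin chain whose 3′ UTR holds an 8mer, stood at -0.06 (p = 0.607) in the authors' deposited table. In C-33A, where 0.273% of measured genes fell, 5 of 22 measured targets did, GJA1 and STAM2 with the 3 above. The list median there was -0.35.

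The SLIT and ROBO genes, which host miR-218 and receive the SLIT signal, held 0 calls among 6 measured members (median 0.18). Over all measured genes 0.0848% fell and 0.013% rose. SLIT2 stood at 0.07 (p = 0.646) and the ROBO effector SRGAP3 at 0.29 (p = 0.094) in the authors' deposited table. SLIT3 was below the measured level, at an average log2 CPM of -2.57.

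Of 23 measured genes of microRNA action 0 were called, where 0.0848% of measured genes fell and 0.013% rose. Their median was 0.19, against 0.01 for measured genes, with 16 above 0 and 7 below, and 5 of 23 were higher at an unadjusted p under 0.05, where 4.23% of measured genes were. The slicer AGO2 stood at 0.52 (SE 0.153, p = 0.000682, adjusted p = 0.643) and AGO1 at 0.48 (p = 0.0125) in the authors' deposited table. AGO3 stood at 0.29 (p = 0.0388) and the uridylyltransferase TUT4 at 0.28 (p = 0.044) in the authors' deposited table. The lowest of the 7 were PRKRA at -0.37 (p = 0.0896), AGO4 at -0.16 (p = 0.293) and the processing enzyme DICER1 at -0.15 (p = 0.213) in the authors' deposited table. The list median was 0.14 once the trend of length and GC content was removed. AGO2 stood at 0.46 in C-33A as well, and the list median there was -0.05, in the authors' deposited table.

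The PI3K-AKT-mTOR, NF-kB, p53, stress response and interferon lists held 0 calls. Over all measured genes 0.0848% fell and 0.013% rose, so 0 calls in lists of this size does not show that a pathway was unchanged. In the PI3K-AKT-mTOR list (31 measured, median 0.11), RPTOR stood at 0.38 (p = 0.0222), PDPK1 at 0.35 (p = 0.0274), IRS1 at 0.34 (p = 0.0344) and PIK3CB at 0.35 (p = 0.0352) in the authors' deposited table. In the NF-kB list (29 measured, median -0.02), the inhibitor NFKBIA stood at -0.39 (p = 0.00504), beside BIRC3 above, in the authors' deposited table. The p53 target list (25 measured, median -0.02) had PHLDA3 at -0.45 (p = 0.0222) in the authors' deposited table. In the stress response list (24 measured, median 0.01), the serine synthesis enzyme PSAT1 stood at 0.33 (p = 0.0133) and VLDLR at 0.48 (p = 0.0209) in the authors' deposited table. The interferon list (21 measured, median -0.10) had IFI6 at -0.45 (p = 0.0518) in the authors' deposited table. At an unadjusted p under 0.05, the PI3K-AKT-mTOR list held 1 lower and 4 higher genes and the NF-kB list 2 and 1. The p53 list held 1 and 1, the stress response list 1 and 2 and the interferon list 0 and 1. That limit took in 2.62% of measured genes as lower and 4.23% as higher. The lower stress response gene was SLC7A11, at -0.35 as above.

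Lists of cell state and adhesion also held 0 calls, where 0.0848% of measured genes fell and 0.013% rose. Among 24 measured squamous keratin and differentiation genes (median 0.03), KRT6A stood at -0.45 (p = 0.0048) and KRT80 at 0.51 (p = 0.0116) in the authors' deposited table. Among 21 mesenchymal genes (median 0.02), 12 were above 0 and 9 below. At an unadjusted p under 0.05, where 2.62% of measured genes were lower and 4.23% higher, 3 were lower and 0 higher. Among these were the collagen crosslinking enzyme LOXL2 at -0.48 (p = 0.00472) and thrombospondin 1 (THBS1) at -0.38 (p = 0.034) in the authors' deposited table. Laminin, integrin and focal adhesion genes (34 measured) had a median of 0.12. Of 7 measured connexins, whose median was 0.17, GJA1 had the lowest p and GJC1 stood at 0.20 (p = 0.132) in the authors' deposited table.

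Cytosolic ribosomal protein genes stood at a median of -0.18 over 35 members, 31 of them below 0. Without RPS9 and RPS18, whose folds were under -8, the median was -0.16 with 29 of 33 below 0, and without all uncalled genes under -1 it was -0.16 with 27 of 31 below 0. RPL3 had the lowest p of the list, at -0.39 (p = 0.0384), in the authors' deposited table. The 13 mitochondrially encoded genes were all above 0 with a median of 0.61, and the lowest p was 0.679, for MT-ND4L at 0.77 (SE 1.86) in the authors' deposited table. That SE exceeds the median, and no direction is read from it. The part of these lists in the other fold changes was not tested.

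**Figure D4:**
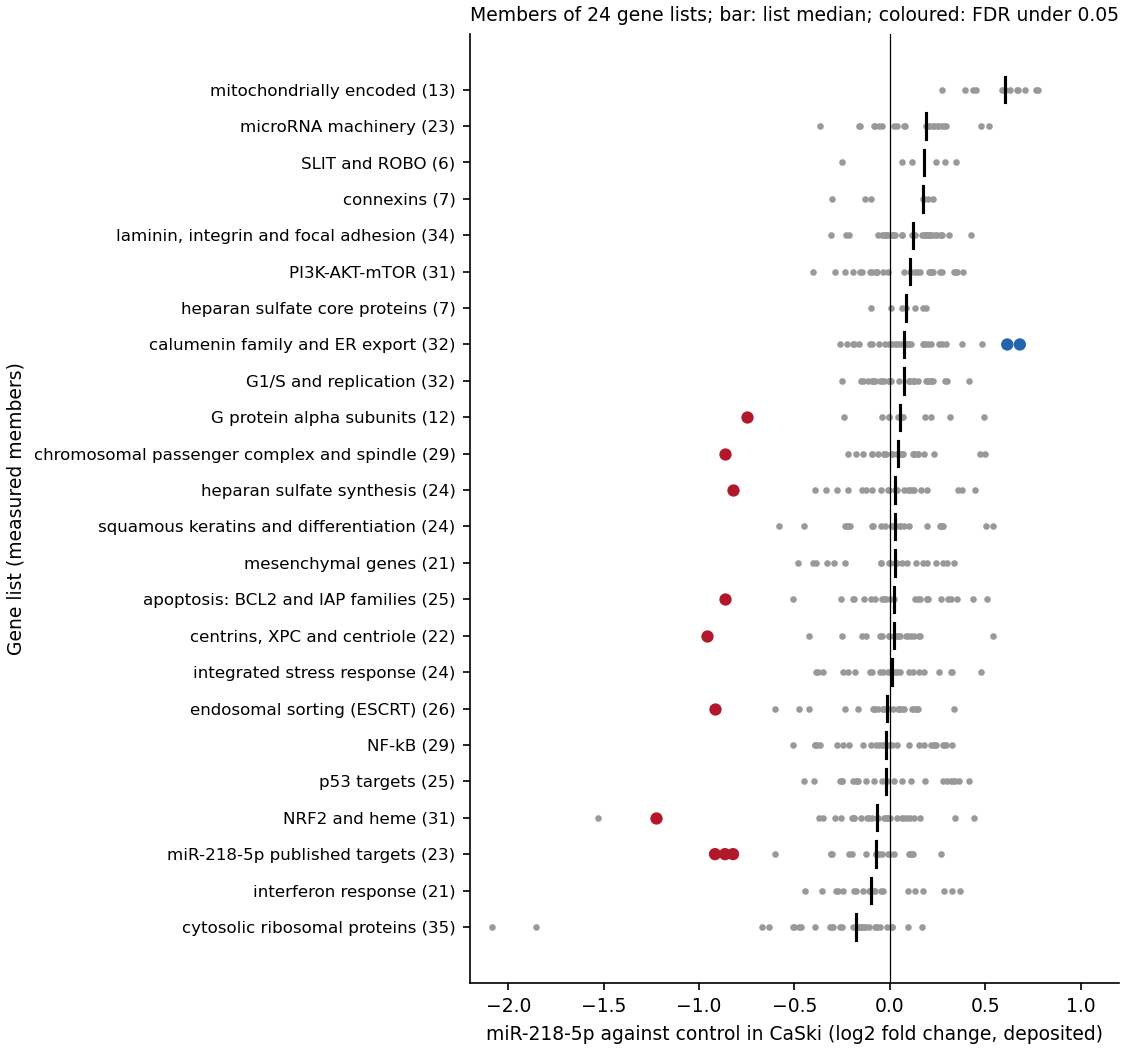
Each point is a measured member of 1 of 24 gene lists (vertical axis, number of measured members in parentheses) at its deposited log2 fold change in CaSki with miR-218-5p (horizontal axis); bars mark list medians and coloured points passed the FDR of 0.05. Coloured genes stand alone in their lists except for the 3 published targets and the pair CALU and MCFD2; 5 members with fold changes under -8 are outside the axis.

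The other 2 CaSki mimics were compared with the same control samples, so their values are set side by side and no overlap is read from them. Each of the 13 falls was lower after miR-218-5p than after either other mimic, an order that their choice on the miR-218-5p value favours. Their medians were -0.80 after miR-218-5p, -0.27 after miR-124-3p and -0.24 after miR-23b-3p in the authors' deposited tables. After miR-124-3p 0 of the 13 fell, where 0.801% of measured genes did. After miR-23b-3p 1 fell, CETN2 at -0.49 (adjusted p = 0.00943) in the authors' deposited table, where 3.84% of measured genes fell and 5.25% rose. GALNT3 stood at -0.33 after miR-124-3p and 0.32 after miR-23b-3p, and CAV2 at 0.22 and -0.27, in the authors' deposited tables. HMOX1 was below 0 after each, at -0.40 and -0.56, in the authors' deposited tables. CALU rose after miR-23b-3p as well, by 0.66 (adjusted p = 5.41e-05), and stood at 0.12 after miR-124-3p, in the authors' deposited tables. MCFD2 stood at -0.22 after miR-23b-3p and 0.43 after miR-124-3p in the authors' deposited tables.

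**Figure D5:**
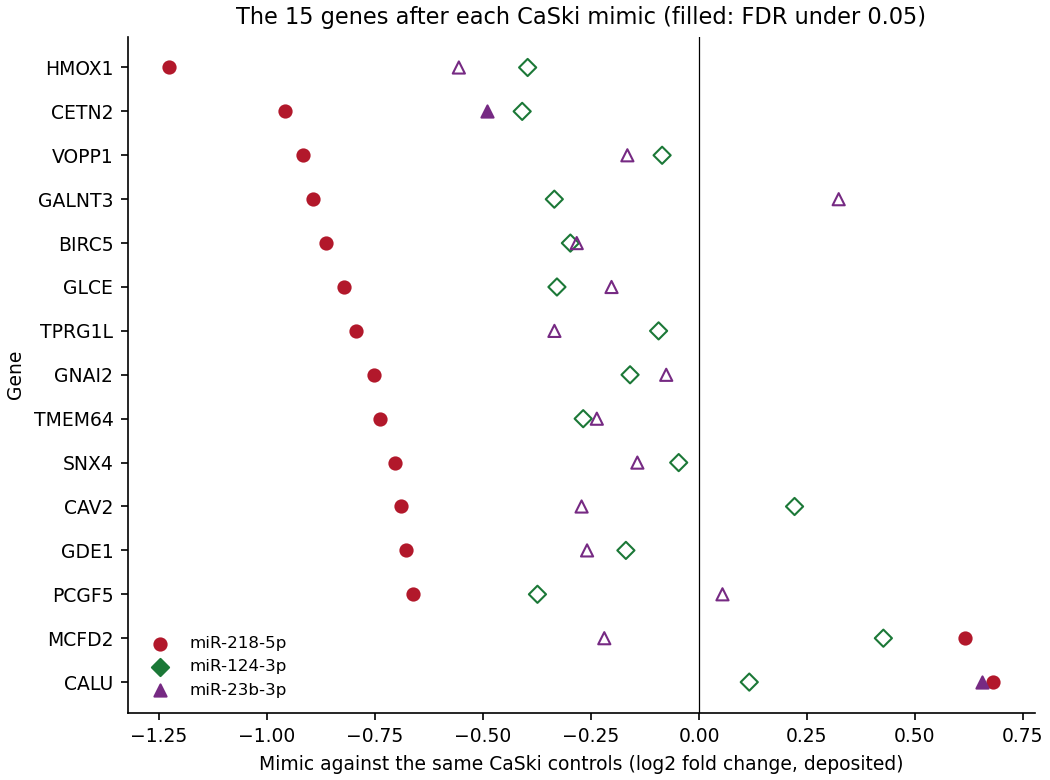
Deposited log2 fold changes (horizontal axis) of the 15 genes (vertical axis) after miR-218-5p, miR-124-3p and miR-23b-3p in CaSki, each against the same 3 control samples; filled symbols have an FDR under 0.05. The 13 falls lie at -0.66 or lower after miR-218-5p and at -0.56 or higher after the other mimics, and CALU is filled after miR-23b-3p too.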

How the data were processed

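PolyA RNA sequencing of 2 cervical cancer lines was processed by the authors on GRCh38 (hg38) with edgeR 3.36.0 after STAR 2.7.10b and featureCounts 2.0.3, per the submitters' processing notes. The authors deposited 1 table per comparison; per the file headers its columns are the F score, p-value, FDR, mean log2 CPM and log2 fold change of each gene. Benjamini-Hochberg adjustment of the deposited p-value over all 61217 genes gives the deposited FDR. Columns of values per sample number 0 in these tables, so depth is unknown and the design's fit to counts did not apply.

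From these values, SEs were taken as the log2 fold change over the normal quantile of the deposited p-value, and intervals are at 95%. Calls used a deposited FDR under 0.05. The lines were compared with a normal test of the difference (two-sided, scipy 1.17.1), adjusted over genes measured in both. Sites were searched on the transcript strand in 3′ UTRs of GENCODE release 29, using each gene's longest protein coding transcript; 57038 gene symbols matched and 19001 had a 3′ UTR. A trend with length and GC content was fitted by robust spline. Scripts were tested on simulated data. Of 642 list symbols in 28 lists, 3 were not among the listed genes; 24 lists describe biology and 4 are cell type markers.

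Named genes were all called genes, the next 10 by FDR, up to 4 members of lowest p per list, published targets, and C-33A calls; some list members that met this rule are not reported here. The comparison, lists and rules were chosen with earlier results of these data known.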

Additional observations from a re-analysis of the deposited data

How the results depend on the processing

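No paired analysis was possible because the tables hold no values per sample, although the titles of the groups share replicate numbers. For the same reason leaving out single replicates and a DESeq2 fit were not run. The 13 falls and 2 rises became 2 and 0 at an FDR of 0.01. Adjusted only over measured genes (log2 CPM from 0), 15 genes fell and 9 rose, and over those from 2 upwards, 17 fell and 12 rose, since fewer genes enter the adjustment; these include all 13 falls and both rises. Centred on the median of genes with a log2 CPM from 2 upwards (0.02), 13 fell and 1 rose, MCFD2 being lost. With the length and GC trend removed 13 fell and 3 rose, and TPRG1L (-0.80 to -0.77, adjusted p = 0.0547), SNX4 (-0.70 to -0.65, adjusted p = 0.12) and MCFD2 (0.62 to 0.58, adjusted p = 0.0962) were no longer past the threshold, with folds close to those before. SEs from the square root of F were 0.734 to 0.808 times those used. Without the genes whose fold change is under -8, or without all uncalled genes under -1, alternatives added after seeing the data, 13 fell, 2 or 3 rose, and each of the 24 list medians kept its sign within 1.5 times; 0 genes differed between the lines with SEs from F. The difference between genes with and without a match to positions 2 to 8, -0.0201, was -0.0669 for 8mers, -0.0736 with the trend removed and -0.0968, -0.110 and -0.0592 in short, middle and long 3′ UTRs. It was 0 without a filter on level and turned to 0.0129 when 6mers counted as sites; the cause was not tested.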
